A study of Mus musculus with 14 samples.

Results

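A set of 9 receptor genes that guide lymphocyte movement was examined in germinal centre (GC) B cells: the chemokine receptors Cxcr4, Cxcr5, Ccr6 and Ccr7, the oxysterol receptor Gpr183, and the sphingosine 1-phosphate (S1P) receptors S1pr1, S1pr2, S1pr3 and S1pr4. They were taken by symbol from a table of 9969 genes, and all 9 were present and passed the filter on low counts that left 7999 genes to test. The cells came from popliteal lymph nodes of C57BL/6 chimeras in which wild type (WT) and SykY317F cells each made up 50%, collected 14 days after immunization with NP-KLH, a hapten coupled to a carrier protein. Syk is a kinase that acts downstream of the antigen receptor of B cells, and SykY317F is a form of it that carries phenylalanine in place of a tyrosine. GC B cells of both genotypes were sorted from the dark zone (DZ), where they divide and mutate their antibody genes, and from the light zone (LZ), where they test the resulting receptors against antigen. The 14 libraries were 4 of WT DZ, 4 of WT LZ, 3 of SykY317F DZ and 3 of SykY317F LZ. The sources used here give no sort markers, ages or pooling of mice. Whether libraries within a group are from different mice is not labelled, so p-values measure the spread between these libraries, which may be technical.

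Levels are given as CPM, the UMIs of a gene in 1000000 UMIs of a library whose total is scaled by TMM (trimmed mean of M values), where a UMI is a tag that marks 1 captured transcript end. Libraries held 149641 to 1767898 UMIs, and the 3 SykY317F LZ libraries, with 149641 to 379125, were the shallowest group. They gave 9.37 to 15.8 UMIs per 100 reads, and the SykY317F DZ library numbered 4 gave 15.6, against 33.5 to 53.2 in the others. In LZ this difference in yield cannot be told apart from genotype. Within SykY317F it also goes with zone in part, since the DZ libraries numbered 1 and 2 gave 34.3 and 43.0. The SykY317F zone differences, the averages and the difference of zone effects all use these libraries. Depending on the library, 3 UMIs equal 1.72 to 18.7 CPM. The summed level of 4 pan-B cell markers (Cd79a, Cd79b, Ms4a1 and Pax5) was 3842 to 7206 CPM over all libraries, that of 6 GC B cell markers 438 to 1220.1 CPM, that of 11 T cell markers 97.8 to 409 CPM and that of 9 myeloid markers 50.4 to 544 CPM. In sorted populations such as these, fewer cells of a type and less RNA per cell cannot be told apart.

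All 9 are receptors coupled to G proteins. CXCR4 and its ligand CXCL12 hold GC B cells in the dark zone, and CXCR5 and its ligand CXCL13 draw B cells into follicles and towards the light zone. CCR7 and its ligands CCL19 and CCL21 pull activated B cells to the edge of the T cell zone, GPR183 (EBI2) follows oxysterols to the outer follicle, S1PR1 takes lymphocytes out of the node, and S1PR2, acting through the G protein subunit Gα13, keeps GC B cells confined to the GC.

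Promoter windows of Ccr6, S1pr3, S1pr2 and Cxcr4 are shown here, as sequence context for the values that follow. They hold the 250 bases before the transcription start in RefSeq (GRCm38.p6), read 5′ to 3′ on the gene's strand, in lower case, with matches to any of 4 motifs in capitals. The table of promoters held 7 windows for 6 of the 9 genes, and none for Cxcr5, Ccr7 and S1pr1.
Ccr6, upstream start, chr17:8235793-8236042, plus strand: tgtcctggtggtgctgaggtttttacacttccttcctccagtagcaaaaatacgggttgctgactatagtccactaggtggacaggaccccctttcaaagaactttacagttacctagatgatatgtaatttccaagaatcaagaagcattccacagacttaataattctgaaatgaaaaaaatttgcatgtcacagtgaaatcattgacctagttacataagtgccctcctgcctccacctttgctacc
Ccr6, downstream start, chr17:8242276-8242525, plus strand: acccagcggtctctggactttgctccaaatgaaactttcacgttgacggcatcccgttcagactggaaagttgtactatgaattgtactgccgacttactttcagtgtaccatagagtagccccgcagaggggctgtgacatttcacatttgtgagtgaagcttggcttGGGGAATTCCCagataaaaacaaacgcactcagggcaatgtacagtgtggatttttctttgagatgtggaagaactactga
S1pr3, chr13:51408368-51408617, plus strand: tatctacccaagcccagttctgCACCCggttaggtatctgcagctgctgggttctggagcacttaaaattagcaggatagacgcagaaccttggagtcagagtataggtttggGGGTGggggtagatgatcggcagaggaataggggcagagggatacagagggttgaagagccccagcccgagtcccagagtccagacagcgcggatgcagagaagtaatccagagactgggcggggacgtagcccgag
S1pr2, chr9:20976794-20977043, minus strand: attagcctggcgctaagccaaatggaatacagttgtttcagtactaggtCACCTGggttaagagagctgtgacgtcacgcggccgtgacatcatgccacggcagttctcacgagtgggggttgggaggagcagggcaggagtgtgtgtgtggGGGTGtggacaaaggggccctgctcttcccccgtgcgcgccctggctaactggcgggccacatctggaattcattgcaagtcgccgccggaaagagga
Cxcr4, chr1:128592300-128592549, minus strand: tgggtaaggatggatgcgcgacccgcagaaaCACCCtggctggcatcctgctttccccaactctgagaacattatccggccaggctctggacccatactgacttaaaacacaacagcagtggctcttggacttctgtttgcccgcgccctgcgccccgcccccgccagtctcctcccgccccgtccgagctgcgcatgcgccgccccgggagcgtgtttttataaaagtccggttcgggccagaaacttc
The motifs, searched on both strands, were the FOXO core GTAAACA, the E2A E-box CAGGTG, the KLF box CACCC and the NF-kB consensus. Among 32851 windows of the same length over all genes, 3.17% held the FOXO core, 17.2% the E-box, 52.0% the KLF box and 7.25% the NF-kB consensus. The NF-kB consensus matched in the window of the downstream Ccr6 start at 2 overlapping positions, 81 and 80 bases before the start, and the upstream Ccr6 window had no match to any of the 4. S1pr3 had the KLF box 228 and 137 bases before its start, S1pr2 had the E-box at 201 and the KLF box at 98, and Cxcr4 had the KLF box at 219. These matches are descriptions of letters, and no binding was measured in this series.

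In the annotation of GRCm38, the assembly named mm10 in the submitters' processing notes, all 9 are protein-coding genes. Ccr6 lies at chr17:8236043-8257141, S1pr3 at chr13:51408639-51422797, S1pr2 at chr9:20962361-20976781, Cxcr4 at chr1:128588199-128592293 and S1pr1 at chr3:115710433-115715072. Cxcr5 (chr9:44511787-44561877) overlaps Bcl9l and Gpr183 (chr14:121952551-121965195) overlaps Ubac2, each on the opposite strand. S1pr3 overlaps the non-coding gene Gm32834 on the opposite strand. The sources used here do not say whether counting used strand, so the counts of these 3 members may include reads of their overlapping partners. Ccr7 lies at chr11:99144196-99155077 and S1pr4 at chr10:81497747-81500132.

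Between zones, S1pr3 and Ccr6 rose from DZ to LZ when both genotypes were averaged, S1pr3 by 1.28 ± 0.22 (log2 fold change ± SE) and Ccr6 by 1.37 ± 0.29, which are 2.43-fold and 2.58-fold. The adjusted p was 0.00566 for S1pr3 and 0.0250 for Ccr6 (edgeR's quasi-likelihood test, Benjamini-Hochberg over 7999 genes, n = 14 libraries). They are the 2 of 9 members that passed the threshold of 0.05, and over all tested genes 1.43% passed, 0.55% in the higher direction. At an unadjusted p under 0.05 (edgeR) S1pr2 joined them, with 14.3% of all tested genes. No member passed in any edgeR comparison of genotypes.

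S1pr3 binds S1P and couples to several G proteins. Its level was 55.4, 54.1, 60.1 and 36.2 CPM in the 4 WT DZ libraries and 98.1, 111, 97.2 and 108.9 CPM in the 4 WT LZ libraries. In SykY317F it was 46.9, 36.1 and 21.96 CPM in DZ and 83.0, 78.4 and 168 CPM in LZ. Every LZ library of either genotype was above every DZ library. Within WT alone the log2 fold change was 1.02 ± 0.27 (adjusted p = 0.127, edgeR) and within SykY317F 1.54 ± 0.35 (adjusted p = 0.111, edgeR), so neither single genotype passed. DESeq2's Wald test called S1pr3 in both genotypes and limma voom in WT. The averaged S1pr3 call held when each of the 14 libraries was left out in turn, with adjusted p (edgeR) from 0.00637 to 0.0204. It did not hold without the 4 libraries numbered 2 (1.37, adjusted p = 0.0825, edgeR) or with read counts in place of UMIs (1.09, adjusted p = 0.0584, edgeR).

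CCR6 is the receptor of CCL20 and is carried by naive and memory B cells and by a subset of GC B cells that can become memory cells. Its level was 94.0, 37.8, 55.7 and 33.7 CPM in WT DZ and 162, 243, 59.1 and 209 CPM in WT LZ, where 1 LZ library stayed within the DZ range. In SykY317F it was 70.7, 136 and 79.6 CPM in DZ and 210.5, 218.5 and 187 CPM in LZ, and these groups did not overlap. The log2 fold change was 1.65 ± 0.38 in WT (adjusted p = 0.0853, edgeR) and 1.09 ± 0.45 in SykY317F (adjusted p = 0.417, edgeR). DESeq2's Wald test and limma voom called Ccr6 between the WT zones (adjusted p = 0.00800 and 0.0186). The averaged Ccr6 call was lost with scaling by library size (adjusted p = 0.0521, edgeR), in 8 of the 14 fits that left out 1 library, at adjusted p of up to 0.0858 (edgeR), and without the 4 libraries numbered 2 (1.60, adjusted p = 0.0599, edgeR).

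S1pr2 was the most abundant member in WT DZ, at 547, 618, 603 and 534 CPM, against 324, 260.3, 522 and 494 CPM in WT LZ. These groups did not overlap, and the log2 fold change of -0.53 ± 0.23 had an adjusted p of 0.521 (edgeR). In SykY317F it was 509, 359 and 434 CPM in DZ and 332, 263 and 374 CPM in LZ, with an overlap and a log2 fold change of -0.43 ± 0.27 (adjusted p = 0.631, edgeR). Averaged over genotypes it was -0.48 ± 0.18, with an unadjusted p of 0.0147 and an adjusted p of 0.210 (edgeR), so S1pr2 did not pass.

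**Figure D1:**
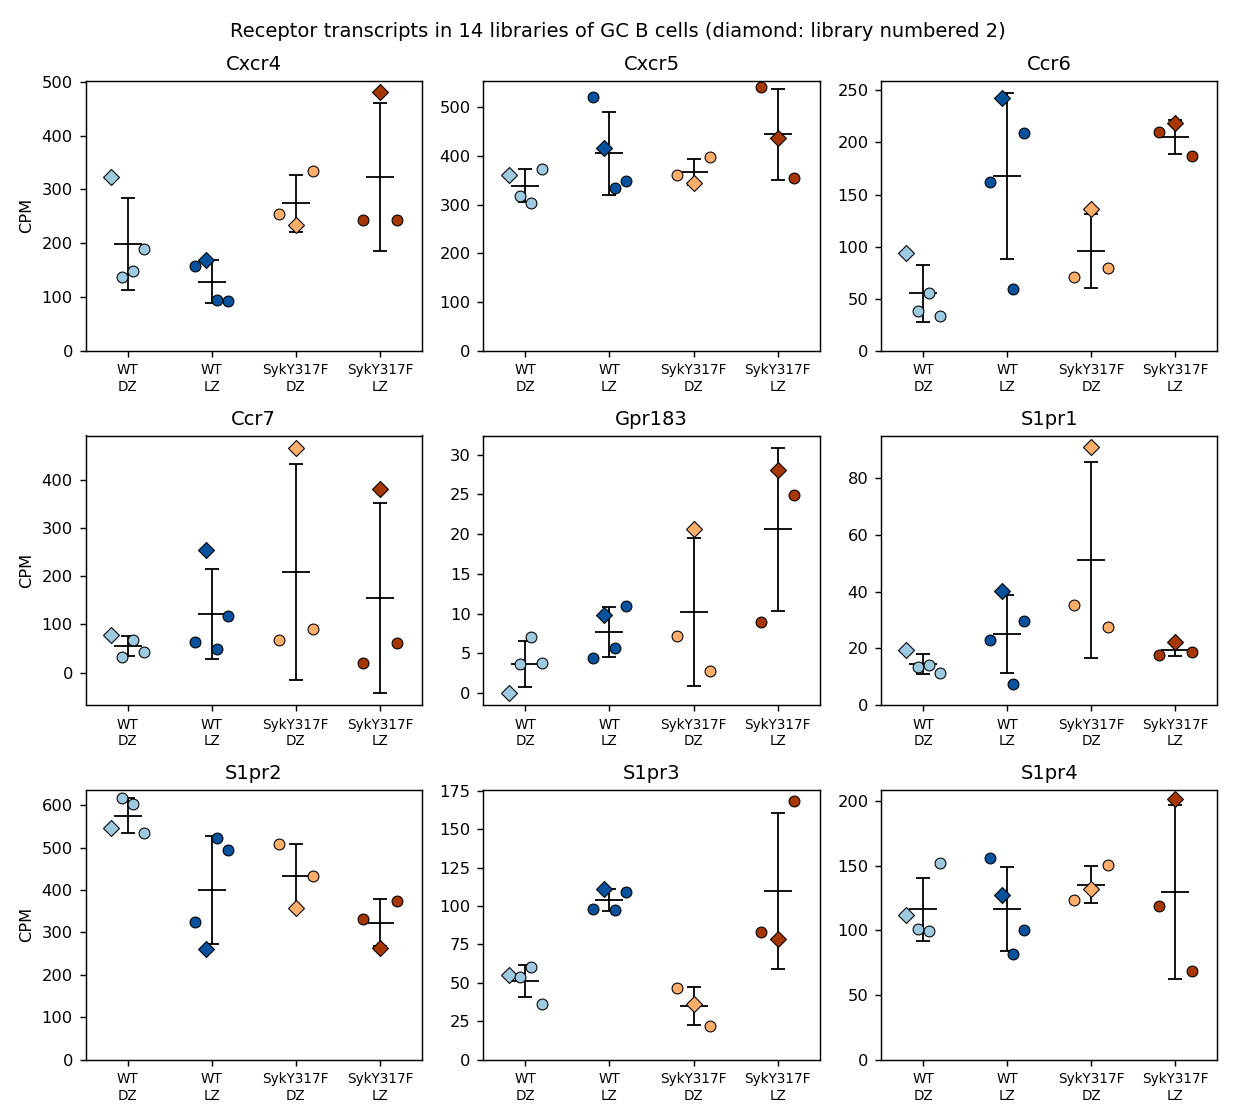
Level in CPM (linear y axis) of the 9 receptor genes in each of the 14 libraries, by group on the x axis, with bars for mean ± SD and diamonds for libraries numbered 2. Every S1pr3 LZ point (78.4 to 168 CPM) lies above every S1pr3 DZ point (21.96 to 60.1 CPM), and Ccr7 has 1 high library in each of 3 groups.

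The mean level of Cxcr4 in WT was 199 ± 85.4 CPM in DZ and 129 ± 40.3 CPM in LZ (SD, n = 4 each), and in SykY317F 274 ± 53.3 and 323 ± 138 CPM (SD, n = 3 each). Its 4 WT DZ libraries held 323, 138, 148 and 189 CPM and its 4 WT LZ libraries 158, 169, 95.3 and 92.9 CPM, so the zones overlapped. The log2 fold change from DZ to LZ in WT was -0.62 ± 0.30 (adjusted p = 0.588, edgeR). Without the WT DZ library numbered 2, the highest of its group, it was -0.30. In SykY317F the libraries held 254, 234 and 335 CPM in DZ and 243, 482 and 243 CPM in LZ, at 0.23 ± 0.35 (adjusted p = 0.877, edgeR). The difference between those zone effects, 0.85 ± 0.46, had an adjusted p of 0.999 (edgeR).

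Group means of Cxcr5 had overlapping SD ranges, at 339 ± 33.5 CPM in DZ and 406 ± 85.0 in LZ of WT (SD, n = 4 each), and 368 ± 27.4 and 445 ± 93.9 CPM in SykY317F (SD, n = 3 each). Its averaged zone difference of 0.27 ± 0.16 on the log2 scale had a 95% interval from -0.06 to 0.60. S1pr4, a receptor of haematopoietic cells, was also close between zones, at 116 ± 24.5 and 116 ± 32.3 CPM in WT and 136 ± 14.1 and 130 ± 67.3 CPM in SykY317F. Its averaged difference was -0.03 ± 0.21, with a 95% interval from -0.47 to 0.42.

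Ccr7 had the largest coefficient of variation of the 9 members in 3 groups, 77.0% in WT LZ, 107% in SykY317F DZ and 127% in SykY317F LZ. The library numbered 2 was the highest of each group, at 77.2 CPM in DZ and 254 CPM in LZ of WT and 466 and 381 CPM in SykY317F, and the other 10 held 20.7 to 116 CPM. Its zone difference was 1.18 ± 0.85 in WT and -0.53 ± 1.02 in SykY317F (adjusted p = 0.761 and 0.912, edgeR), and the SykY317F value turned to 0.92 without the SykY317F DZ library numbered 2. Gpr183 was near the counting limit, at 0 to 31 UMIs a library, and the 0 in a WT DZ library allows up to 3.86 CPM (3 UMIs, for counting error only). Its group means were 3.63 ± 2.89, 7.70 ± 3.15, 10.2 ± 9.35 and 20.6 ± 10.3 CPM in the same order, and its zone differences were 1.05 ± 0.68 and 0.75 ± 0.81 (adjusted p = 0.717 and 0.796, edgeR).

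S1pr1 was low, at 11.2 to 19.3 CPM in WT DZ and 7.63 to 40.3 CPM in WT LZ, and did not pass there between zones (0.87 ± 0.43, adjusted p = 0.601, edgeR). In SykY317F its 3 DZ libraries held 35.3, 90.8 and 27.5 CPM and its 3 LZ libraries 17.8, 22.4 and 18.7 CPM, without overlap (-1.45 ± 0.58, adjusted p = 0.402, edgeR). Those LZ values rest on 6, 4 and 3 UMIs. The zone effects of the genotypes differed by -2.32 ± 0.72, with an unadjusted p of 0.00425 and an adjusted p of 0.989 (edgeR), where 0 of 7999 genes (0%) passed and 4.8% had an unadjusted p under 0.05. Without the SykY317F DZ library numbered 2 the S1pr1 zone value in SykY317F was -0.73 and the difference -1.59, and with read counts they were -0.78 and -1.52 (unadjusted p = 0.251 and 0.101, edgeR).

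Counting over the members, 2 of 9 did not overlap between zones in WT (S1pr2 lower and S1pr3 higher in LZ), where 5.76% of tested genes did not overlap. In SykY317F 3 of 9 did not overlap (Ccr6 and S1pr3 higher, S1pr1 lower), where the share was 15.1%. At the threshold on adjusted p, 0.188% of genes passed in WT and 0.0375% in SykY317F, with 0 members in both. At an unadjusted p under 0.05 (edgeR), 4 members passed in WT (Cxcr4, Ccr6, S1pr2 and S1pr3) against 8.5% of genes, and 3 in SykY317F (Ccr6, S1pr1 and S1pr3) against 10.3%. The median log2 fold change of the members was 0.87 in WT and 0.23 in SykY317F, beside -0.02 and -0.04 over all tested genes.

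Between genotypes, the members with the smallest p were S1pr1 in DZ and Cxcr4 in LZ, both higher in SykY317F, and neither passed the threshold. S1pr1 was 14.5 ± 3.43 CPM in WT DZ (SD, n = 4) and 51.2 ± 34.6 in SykY317F DZ (SD, n = 3), and all 3 SykY317F libraries were above all 4 WT libraries. The log2 fold change was 1.89 ± 0.44 (adjusted p = 0.632, edgeR), and 1.16 without the SykY317F DZ library numbered 2. Cxcr4 in LZ was higher in all 3 SykY317F libraries than in all 4 WT libraries, with a log2 fold change of 1.31 ± 0.33 (adjusted p = 0.154, edgeR). Without the SykY317F LZ library numbered 2 it was 0.88. Averaged over zones Cxcr4 differed by 0.88 ± 0.23 (adjusted p = 0.175, edgeR).

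In DZ, 0 of 7999 genes (0%) passed between genotypes at the threshold on adjusted p, and 306 (3.83%) had an unadjusted p under 0.05 (edgeR), among them Ccr7 (1.97 ± 0.90), Gpr183 (1.55 ± 0.70) and S1pr1. Without the SykY317F DZ library numbered 2, Ccr7 was at 0.52 and Gpr183 at 0.57, and without all 4 libraries numbered 2 they were at 0.76 and 0.27. S1pr2 was below the WT range in all 3 SykY317F DZ libraries (-0.41 ± 0.25, unadjusted p = 0.116, edgeR), and with S1pr1 it made 2 of 9 members without overlap, against 5.9% of genes. In LZ, 0 genes (0%) passed and 788 (9.85%) had an unadjusted p under 0.05 (edgeR), among them Cxcr4 alone of the members. Cxcr4 was also the 1 member without overlap there, against 10.5% of genes. Averaged over zones 0 genes (0%) passed and 803 (10%) had an unadjusted p under 0.05 (edgeR), with Cxcr4 and Gpr183 (1.40 ± 0.53, adjusted p = 0.366) among them. DESeq2's Wald test called Cxcr4 in LZ and averaged over zones, and called 43 and 47 genes in those comparisons and 2 in DZ.

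Of Ccr6, S1pr3, Cxcr5 and S1pr4 none had an unadjusted p under 0.05 (edgeR) between genotypes in either zone. The difference of Ccr6 was 0.84 ± 0.41 in DZ and 0.27 ± 0.41 in LZ, and that of S1pr3 -0.48 ± 0.30 and 0.04 ± 0.31 on the log2 scale (adjusted p in LZ of 0.875 and 0.981, edgeR). Cxcr5 differed by 0.11 ± 0.22 in DZ and 0.14 ± 0.23 in LZ, with 95% intervals from -0.34 to 0.57 and from -0.33 to 0.61. S1pr4 differed by 0.21 ± 0.29 and 0.15 ± 0.31. The median over the 9 members was 0.46 in DZ and 0.15 in LZ, beside -0.04 and -0.06 over all tested genes.

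**Figure D2:**
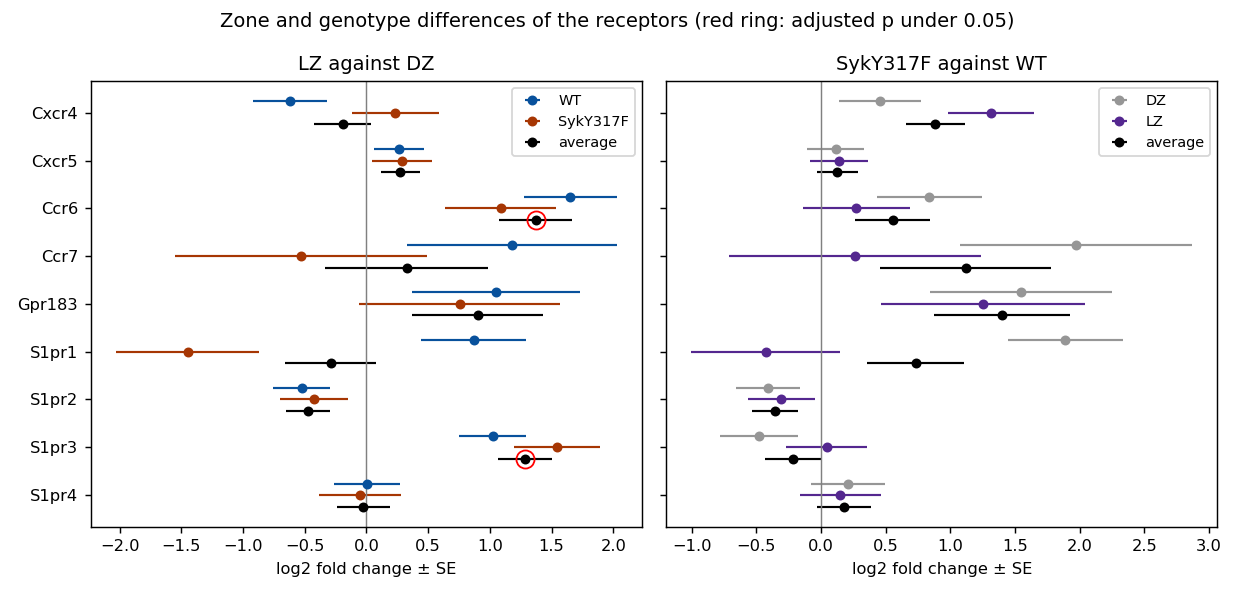
Log2 fold changes of the 9 receptor genes ± SE (x axis) for the zone and genotype comparisons, with red rings at adjusted p under 0.05. S1pr3 lies to the right of 0 between zones in both genotypes (1.02 and 1.54), and S1pr1 between genotypes lies at 1.89 in DZ and -0.43 in LZ.

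In the authors' deposited table, which tests the same 4 pairs of groups, members with an adjusted p under 0.05 were Ccr6 (log2 fold change 1.63, adjusted p = 0.0117) and S1pr3 (1.02, adjusted p = 0.0313) between the WT zones, and S1pr3 (1.53, adjusted p = 0.0196) between the SykY317F zones. Between genotypes in DZ, the authors' deposited table also lists S1pr1 (1.89, unadjusted p = 1.81e-04, adjusted p = 0.0168). DESeq2's Wald test here gave S1pr1 in that comparison an unadjusted p of 1.79e-04 and an adjusted p of 0.145. In LZ the authors' deposited table lists no member, and Cxcr4 stood at 1.34 with an adjusted p of 0.0561. Over all 9969 genes of the authors' deposited table, 78 were below 0.05 between the WT zones, 22 between the SykY317F zones, 18 between genotypes in DZ and 25 in LZ. The fold changes are close to those above and the calls differ. For S1pr1 in DZ the unadjusted p-values are close and the adjusted ones are not. Adjusted p-values of the authors and of the fits here may therefore not be like measures. The cause of the differing calls was not tested.

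The 4 libraries numbered 2 stood apart for some members. Ccr6, Ccr7 and S1pr1 were highest in the library numbered 2 of each of the 4 groups, which held for 102 of 7999 genes (1.28%), and Cxcr4 was so in 3 groups. In SykY317F LZ that order rests on 4 UMIs against 6 and 3 for S1pr1, and on 218.5 against 210.5 and 187 CPM for Ccr6. The summed level of 5 naive and memory B cell markers was highest in the library numbered 2 in 3 groups, that of the T cell markers in 2 and that of the GC B cell markers in 0. The naive and memory B cell list (Fcer2a, Cd38, Klf2, Ighd, Bank1 and Cd55) has 5 of 6 genes in the table. Its sum also moved with the groups compared: 632 to 909 CPM in WT DZ and 854 to 1587 in WT LZ. In SykY317F it was 1021 to 1530.4 CPM in DZ and 1737 to 1827 in LZ. Fcer2a made up most of that sum, with means of 532 and 950 CPM in WT DZ and LZ and 743 and 1164 CPM in SykY317F. Means of Klf2 and Cd38 were also higher in LZ. Bank1 was close between zones, at 126 and 128 CPM in WT and 155 and 170 CPM in SykY317F. Means of Cd55 were lower in LZ, within their SD, at 13.4 and 10.0 CPM in WT and 35.9 and 11.2 CPM in SykY317F. The GC B cell list held 909 to 1220.1 CPM in WT DZ and 633 to 801 in SykY317F DZ, and the T cell list 97.8 to 191 and 213 to 409 CPM. Lck made up most of the T cell sum in WT DZ (mean 105 of 152 CPM) and was at 115 CPM in SykY317F DZ. In these 2 groups Cd3d was at 5.03 ± 6.23 and 30.3 ± 21.2 CPM (SD). Cd4 was at 2.17 ± 1.36 and 15.2 ± 8.23 CPM, and Cd8b1 at 1.19 ± 1.83 and 23.3 ± 22.9 CPM. Between zones, the GC B cell list was lower in LZ in WT (438 to 705 CPM) and overlapped in SykY317F (487 to 635 CPM in LZ). The list of 5 plasma cell genes (Sdc1, Xbp1, Jchain, Irf4 and Mzb1) held 2115 to 2770 CPM in DZ and 1273 to 1583 CPM in LZ of WT, and 1896 to 2468 and 1334 to 1426 CPM in SykY317F. Mzb1 made up most of that sum (mean 1665 of 2463 CPM in WT DZ), and means of Xbp1 and Jchain were also lower in LZ. Irf4 went the other way, with means of 35.3 and 82.3 CPM in WT and 78.8 and 112 CPM in SykY317F. Sdc1 was near 0, with group means of 0 to 2.24 CPM. Myeloid markers held 265 to 544 CPM in SykY317F DZ and 50.4 to 129 CPM in SykY317F LZ, and overlapped between zones in WT. The 2 endothelial and stromal genes in the table, Pecam1 and Cxcl13, held 28.9 to 54.3 CPM in DZ and 62.9 to 83.9 CPM in LZ of WT, and overlapped in SykY317F. Nearly all of that was Pecam1 (means 42.2 and 75.7 CPM in WT), with Cxcl13 at 0.48 and 0.82 CPM. No list member in the table was at 0 in a whole group except Icos and Sdc1 in SykY317F LZ. The part of these lists in the zone and genotype differences of the 9 members, S1pr3 and Ccr6 included, was not tested.

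**Figure D3:**
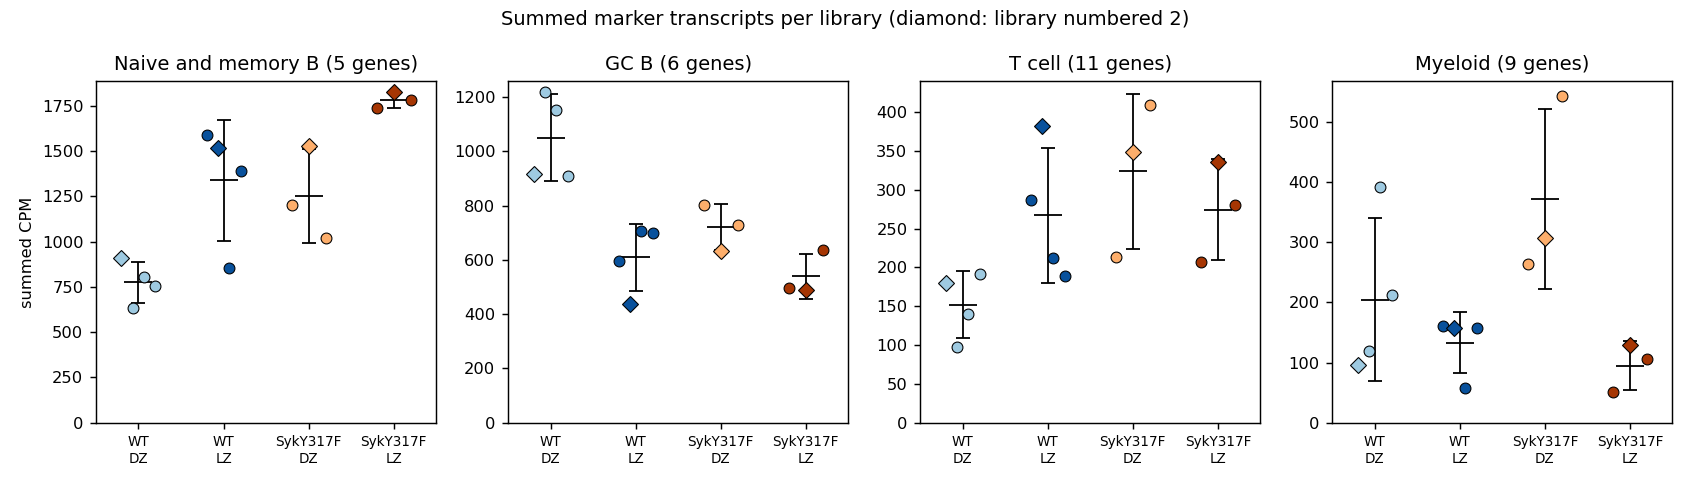
Summed CPM of 4 marker lists (y axis) in each library, by group, with bars for mean ± SD and diamonds for libraries numbered 2. The naive and memory B cell list runs from 632 to 909 CPM in WT DZ and from 1737 to 1827 CPM in SykY317F LZ.

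Of the other genes of these pathways, 3 passed between zones averaged over genotypes, where 1.43% of all tested genes passed. In each of the other 6 comparisons 0 passed. In the S1P metabolism list 1 of 7 tested genes rose, Ppap2a, a phosphatase that removes phosphate from lipids such as S1P (1.10 ± 0.24, adjusted p = 0.0209, edgeR). In the list of 11 transcription factors Nfkb2, a subunit of the non-canonical NF-kB pathway, rose (0.77 ± 0.19, adjusted p = 0.0447, edgeR) and Bcl6, the repressor that defines GC B cells, fell by 0.77 on the log2 scale (SE 0.18, adjusted p = 0.0357, edgeR). Ppap2a was 33.0 ± 7.24 and 65.5 ± 6.11 CPM in WT DZ and LZ and 24.3 ± 7.88 and 52.1 ± 19.4 CPM in SykY317F DZ and LZ (SD).

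Of 5 tested receptors outside the 9, 25 tested genes of signal relay and feedback and 1 tested ligand enzyme, none passed between zones (edgeR). Of them 1, 2 and 0 had an unadjusted p under 0.05 (edgeR, averaged over genotypes). So had 2 of 7 S1P metabolism genes, 5 of 11 transcription factors and 14.3% of all tested genes. These lists were chosen with earlier results of these data known. The list medians were -0.17 and -0.01 for the receptors and the relay genes, -0.13 for S1P metabolism and -0.12 for the transcription factors, beside -0.03 over all tested genes. Ackr4, a scavenger of CCL19 and CCL21, had -1.92 ± 0.60 (adjusted p = 0.140, edgeR), and P2ry10, a lysophospholipid receptor, -1.43 ± 1.03. Rgs19 and Rgs10, which end G protein signals, had -0.48 ± 0.17 and -0.41 ± 0.18 (adjusted p = 0.173 and 0.310, edgeR). Hsd3b7, which degrades the GPR183 ligand, had -0.70 ± 0.43. Klf2, a factor known to drive S1pr1 and named here after its values were seen, was 92.1 ± 30.8 CPM in WT DZ and 286 ± 44.5 CPM in SykY317F DZ (1.65 ± 0.38, adjusted p = 0.641, edgeR). Between genotypes in LZ, Klf2 had 0.66 ± 0.39 and S1pr1 -0.43 ± 0.58. From DZ to LZ in SykY317F, Klf2 had 0.30 ± 0.42 and S1pr1 -1.45 ± 0.58, and in WT 1.29 ± 0.36 and 0.87 ± 0.43. The part of Klf2 in the S1pr1 values was not tested. Klf2 also stands in the naive and memory B cell list above.

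**Figure D4:**
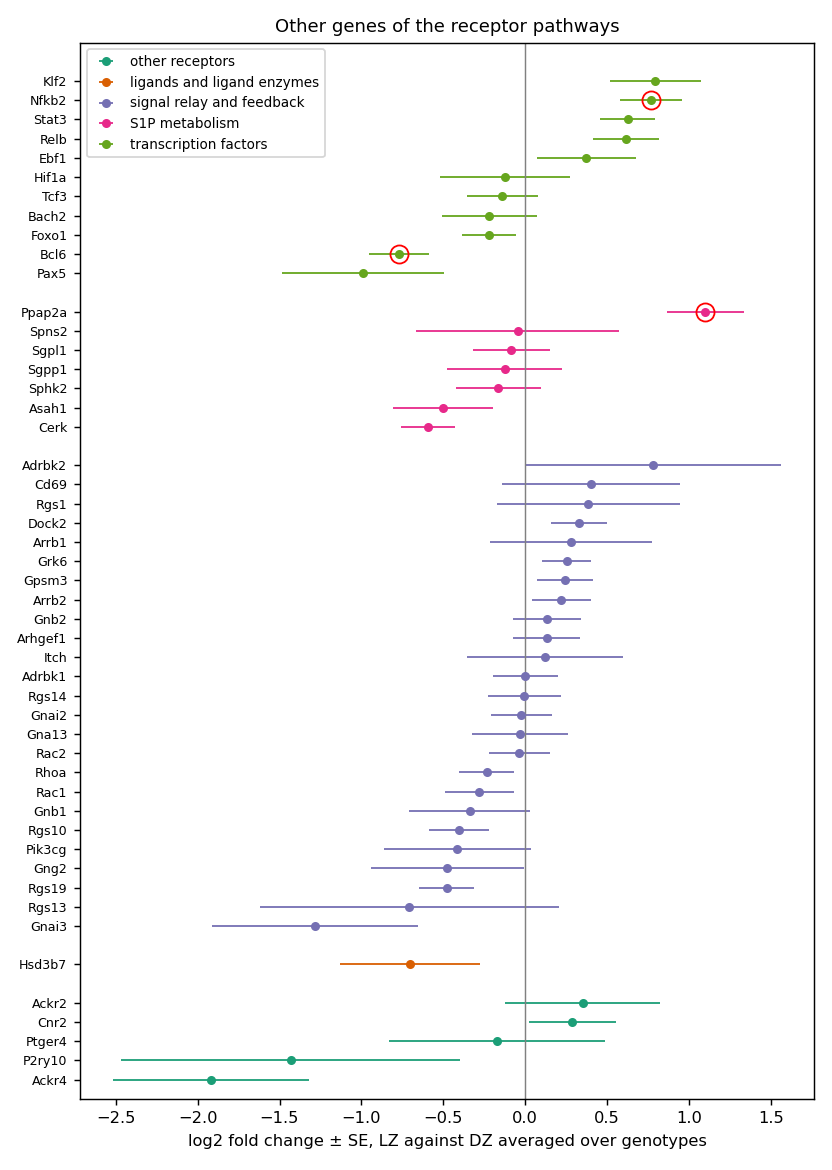
Averaged LZ against DZ log2 fold changes (x axis) ± SE of the tested pathway genes by list, with red rings at adjusted p under 0.05. Ppap2a (1.10) and Nfkb2 (0.77) lie on the higher side and Bcl6 (-0.77) on the lower side.

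The genes most like each member over the 14 libraries, by Pearson r of log2 CPM among 5441 genes with at least 20 UMIs a library on average, are given as descriptions, since the libraries share groups and depth. For S1pr2 the first was Pou2af1 (0.92). For S1pr3 they were Arid3b (0.87) and Slc2a6 (0.86), for Ccr6 Cyb561a3 (0.91) and Snn (0.90), and for Ccr7 S100a10 (0.91) and Rasgef1b (0.91). For Cxcr4 they were Rbbp6 (0.81) and Cd2 (0.78), for Cxcr5 Pcnxl3 (0.95) and Ciita (0.94), for S1pr1 Zmynd11 (0.85) and Pml (0.85), and for S1pr4 Cacna1i (0.93) and Leng1 (0.91). Gpr183, with a mean of 7.79 UMIs, was below that minimum.

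Within a group, levels were ranked without division by length, since a UMI marks 1 transcript end. S1pr2 was first in both DZ groups and Cxcr5 first in both LZ groups. In WT LZ, SykY317F DZ and SykY317F LZ the mean ± SD ranges of these leaders overlapped, and in WT DZ S1pr2 (575 ± 41.1 CPM) was apart from Cxcr5 (339 ± 33.5 CPM). S1pr1 and Gpr183 were the lowest in 3 groups, and Gpr183 (10.2 CPM) and S1pr3 (35.0 CPM) in SykY317F DZ. Across groups, the mean ± SD ranges of neighbours in the order of each member's means overlapped except S1pr2 in WT DZ above SykY317F DZ and S1pr3 in WT LZ above WT DZ.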

How the data were processed

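Per the labels' protocols, cells were sorted into lysis buffer, poly(A) RNA was bound to oligo(dT) beads and a modified MARS-seq protocol was applied. Tools named in the submitters' processing notes, without role or order, are DESeq, DESeq2, HTSeq, cutadapt and STAR 2.4.2a, with the build mm10. The authors deposited UMI counts per gene symbol and, separately, read counts that keep PCR copies, both not normalized, per the file headers and values. Not used were the deposited signal columns (UMI counts divided by 1 size factor per library) and regularised log2 values. From the authors' own tests, log2 fold changes, adjusted p-values and the unadjusted p-value of S1pr1 in DZ were only quoted.

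UMI counts were filtered with filterByExpr, which left 7999 of 9969 genes with 99.3% of UMIs. TMM scaling was used, and edgeR 4.0.16 (R 4.3.3) fitted a robust quasi-likelihood model of the 4 groups over 14 libraries (common biological coefficient of variation 32.3%). The 7 contrasts compare zones, genotypes, their averages and the difference of zone effects, with Benjamini-Hochberg adjustment over all tested genes and a threshold of 0.05. SE is the fold change divided by the square root of F. Alternatives used DESeq2 1.42.0, limma 3.58.1 voom, other scalings, no filter, read counts, the replicate number as a block and each library left out. Leaving out the 4 libraries numbered 2, or the 4 libraries under 400000 UMIs, was added after seeing the data. The steps were tested on simulated data.

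The members and lists were chosen with earlier results of these data known. All 9 members are named. Of the lists (other receptors, ligands and ligand enzymes, signal relay and feedback, S1P metabolism, transcription factors) genes that passed are named, otherwise up to 2 a list with the smallest p between zones averaged over genotypes, and for members with at least 20 UMIs a library the 2 most like genes (prior count 2). RefSeq promoters matched 6 of 9 members. Some genes of the marker lists and of the most like genes are not reported here, and summed marker levels leave them out.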

Additional observations from a re-analysis of the deposited data

How the results depend on the processing

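The fold changes of the members were refitted under 9 other settings and with each of the 14 libraries left out. S1pr3 and Ccr6 kept their direction between zones in every refit. Scaling by library size left 1 member (S1pr3) past the threshold between zones averaged over genotypes, with Ccr6 at an adjusted p of 0.0521 (edgeR), and gave 9 genes between the SykY317F zones and 1 between genotypes in LZ. It turned S1pr4 between the WT zones to -0.0024 and S1pr3 between genotypes in LZ to -0.028, and moved the median of all genes to -0.18 between the SykY317F zones, -0.16 between genotypes in LZ, -0.11 between zones averaged over genotypes and -0.18 for the difference of zone effects. No filter turned S1pr4 between the WT zones to -0.0083, with medians of -0.12, -0.12, -0.08 and -0.11 in the same order. DESeq2's Wald test called 97 genes and 2 members (Ccr6 and S1pr3) between the WT zones, 42 and 1 (S1pr3) between the SykY317F zones, 235 genes between zones averaged over genotypes, 2 between genotypes in DZ, 43 and 1 (Cxcr4) in LZ, and 47 and 1 (Cxcr4) averaged over zones. Limma voom called 292 genes and 2 members (Ccr6 and S1pr3) between the WT zones, 200 between zones averaged over genotypes and 7 between genotypes averaged over zones, and gave -0.81 for Ccr7 and -0.13 for S1pr3 between genotypes in LZ. Read counts called 0 genes between the WT zones, 20 between the SykY317F zones, 49 and 1 member (Ccr6) averaged over genotypes, 54 between genotypes in LZ and 10 averaged over zones. They gave 0.017 for Ccr7 and 0.035 for S1pr4 between the SykY317F zones, and 0.14 for S1pr1 and -0.098 for S1pr3 between genotypes in LZ.

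With the replicate number as a block, 1 member (Ccr6, 1.58, adjusted p = 0.0355, edgeR) was among the 14 of 7999 genes that passed between the WT zones, and 1 gene passed between the SykY317F zones. The block turned S1pr4 between the WT zones to -0.10, Cxcr5 between genotypes in DZ to -0.030, and Ccr7 and S1pr3 between genotypes in LZ to -0.28 and -0.12, and it changed no other call of a member. The labels do not say that a number marks a shared mouse or day, and libraries were not treated as pairs. Deviations of same-numbered libraries from their group means correlated at -0.56 to 0.31 (median 0.12), over 0.1 in 8 of 14 pairs. Those of differently numbered libraries correlated at -0.53 to 0.57 (median -0.04), over 0.1 in 17 of 59 pairs. Whether a number marks a shared mouse or day was not tested.

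Without the 4 libraries numbered 2, 0 genes passed between the WT zones and 0 between the SykY317F zones, and 14 genes with 0 members passed averaged over genotypes, from fewer samples. That setting gave -0.030 for S1pr4 between the WT zones, -0.30 for Cxcr4 between the SykY317F zones, and -1.08 for Ccr7 and -0.24 for S1pr4 between genotypes in LZ. Without the 4 libraries under 400000 UMIs, 4 genes passed between the WT zones, and the SykY317F LZ group, left with no library, entered no comparison.

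Leaving out 1 library gave 0 to 1 members and 1 to 26 genes between the WT zones, 0 to 10 genes between the SykY317F zones, 1 to 2 members and 42 to 155 genes averaged over genotypes, 0 to 3 genes between genotypes in LZ and 0 to 5 averaged over zones. Ccr6 between the WT zones passed without the WT DZ library numbered 2 or the WT LZ library numbered 3. Members that turned in direction ran from -0.14 to 0.18 (S1pr4, WT zones), from -0.20 to 0.40 (Cxcr4, SykY317F zones), from -2.54 to 0.92 (Ccr7, SykY317F zones), from -0.51 to 0.21 (S1pr4, SykY317F zones), from -0.055 to 0.27 (Cxcr5, genotypes in LZ), from -1.76 to 0.91 (Ccr7, genotypes in LZ), from -0.37 to 0.21 (S1pr3, genotypes in LZ) and from -0.30 to 0.41 (S1pr4, genotypes in LZ). The cause of these changes, fewer samples included, was not tested. Depth limits S1pr1 and Gpr183 most, with 3 to 6 and 3 to 5 UMIs in the SykY317F LZ libraries.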
